A study of Mus musculus with 15 samples.

Results

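The 30 genes described here encode the enzymes that build cholesterol and long-chain fatty acids, the proteins that sense sterols and switch these enzymes on, and 1 carrier that moves cholesterol between membranes. They were chosen by symbol from the 23420 genes of each raw count table and all 30 passed the filter on low counts in both tables. Msmo1 stands there under its older symbol, Sc4mol. The study asked how transmural pressure, the difference in pressure between the inside and the outside of the airway, bears on branching of the embryonic lung. All lungs came from wild-type embryos of the outbred CD1 mouse strain. In the cultured set, lungs explanted at E12.5 were held for 48 h at low pressure (3 libraries, each from a pool of 6 lungs) or at high pressure (3 libraries, each from a pool of 3). The fresh set held lungs taken straight from embryos at E12.5 (3 libraries of 6 pooled lungs), E13.5 and E14.5 (3 libraries of 3 pooled lungs each).

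Cholesterol is built from acetyl-CoA by way of mevalonate, isoprenoid units, squalene and lanosterol, while fatty acids are built from the same acetyl-CoA and then lengthened and desaturated. When sterols in the endoplasmic reticulum run low, the escort protein Scap carries the transcription factors SREBP-1 and SREBP-2 (genes Srebf1 and Srebf2) to the Golgi, where they are cut and released to bind sterol regulatory elements near the genes of both pathways. Insig proteins hold Scap back when sterols are plentiful. In the developing lung, fatty acids feed the phosphatidylcholine of surfactant, and cholesterol is needed for Hedgehog signalling, which takes part in branching.

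Promoter windows from 250 bases before to 50 after the annotated start were available in the RefSeq table (build GRCm38.p6) for 24 of the 30 genes, in 32 windows, and not for Fdps, Fdft1, Sqle, Scd1, Scd2 or Stard4. They were searched on both strands for a sterol regulatory element written as TCACNCCAC, for the E-box CACGTG, which SREBP-1 can also bind, and for CCAAT, the box of the factor NF-Y, which acts together with SREBPs. The 250 bases before the start are printed for 4 genes that fell at high pressure and, for contrast, for Mvk, which did not, with the matches in capitals.
Hmgcs1, chr13:119690101-119690350, plus strand: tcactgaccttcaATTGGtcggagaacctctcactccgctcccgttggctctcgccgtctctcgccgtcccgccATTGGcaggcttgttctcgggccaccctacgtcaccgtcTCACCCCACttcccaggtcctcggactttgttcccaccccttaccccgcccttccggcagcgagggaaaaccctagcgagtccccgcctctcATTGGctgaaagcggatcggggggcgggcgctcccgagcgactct
Idi1, chr13:8885356-8885605, plus strand: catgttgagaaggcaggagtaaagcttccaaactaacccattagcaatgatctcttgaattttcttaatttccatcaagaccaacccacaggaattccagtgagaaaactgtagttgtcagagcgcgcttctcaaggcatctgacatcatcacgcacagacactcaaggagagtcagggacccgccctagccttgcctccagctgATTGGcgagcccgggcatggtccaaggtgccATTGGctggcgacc
Msmo1, chr8:64733579-64733828, minus strand: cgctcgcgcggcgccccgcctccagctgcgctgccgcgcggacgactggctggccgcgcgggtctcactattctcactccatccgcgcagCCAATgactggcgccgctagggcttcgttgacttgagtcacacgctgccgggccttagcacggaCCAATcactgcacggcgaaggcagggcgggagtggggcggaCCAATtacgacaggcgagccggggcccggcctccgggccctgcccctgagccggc
Insig1, chr5:28071162-28071411, plus strand: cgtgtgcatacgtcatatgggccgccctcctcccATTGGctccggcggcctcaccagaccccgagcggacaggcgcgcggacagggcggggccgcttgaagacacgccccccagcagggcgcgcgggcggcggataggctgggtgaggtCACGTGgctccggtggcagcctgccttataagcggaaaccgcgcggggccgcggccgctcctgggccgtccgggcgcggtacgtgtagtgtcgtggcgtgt
Mvk, chr5:114444019-114444268, plus strand: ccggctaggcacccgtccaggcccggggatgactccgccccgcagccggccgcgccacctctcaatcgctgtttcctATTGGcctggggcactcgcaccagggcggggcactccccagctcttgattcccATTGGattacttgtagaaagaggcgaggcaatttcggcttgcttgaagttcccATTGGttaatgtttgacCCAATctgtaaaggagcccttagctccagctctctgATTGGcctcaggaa
The sterol regulatory element was found in 1 of the 24 genes, Hmgcs1, with its first base at -137 from the start, against 1.24% of all 32851 windows and 1.36% of 11490 tested genes with a window. CCAAT boxes were found in 21 of the 24 genes (Scap, Elovl6 and Acaca had none), against 37.4% of all windows and 42.2% of the tested genes. Mvk, with 5 such boxes, held more of them than any of the other 4 promoters printed. The E-box was found in Insig1, Dhcr7, Hsd17b7, Sc5d and Scap, 5 of the 24, against 7.15% of windows and 11.4% of tested genes. These matches describe letters in a short window and do not show binding.

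Total counts per library ran from 31843739 to 38288861 at low pressure and from 40167255 to 44341263 at high pressure, so depth was separated by pressure. In the fresh set they ran from 18837343 to 21955244. Whether pools within a group represent different litters or culture runs is not stated in the labels, so the p-values cover the spread among these pools alone, which may be technical. Because 6 lungs were pooled at low pressure and E12.5 and 3 elsewhere, an effect of pool size cannot be told apart from that of pressure or of stage. In low pressure replicate 3, 14637 genes were detected, against 16509 to 16726 in the other cultured libraries. Counts of 84 ribosomal protein genes took 3.06% to 3.36% of each high pressure library and 1.93% to 2.20% of each low pressure library. In the fresh set they took 3.59% to 4.36% of replicate 1 of each stage and 1.77% to 2.24% of replicates 2 and 3. The lung markers Nkx2-1 (62.8 to 184 CPM, counts scaled to a common library size, over all libraries) and Foxf1 (143 to 406) were present throughout.

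Levels below are CPM computed within each set. Scd2, a stearoyl-CoA desaturase that introduces a double bond into saturated fatty acids, had the highest level of the 30 genes per kilobase of transcript in all 5 groups, from a mean of 252 CPM per kb at E14.5 to 684 at low pressure. Hmgcs1 followed in the fresh lungs and at low pressure, with 133 CPM per kb at E12.5 and 192 at low pressure. At the other end stood Acss2, which makes acetyl-CoA from acetate, at 1.79 to 3.79 CPM per kb across the groups. Summed over the 30 genes, the level was 4249, 4724 and 5154 CPM in the E12.5 libraries, 4322, 4669 and 4559 at E13.5 and 4019, 3872 and 4335 at E14.5. After culture it was 7641, 9566 and 8744 CPM at low pressure and 7057, 6723 and 6393 at high pressure. Every high pressure library lay below every low pressure library in this sum, whereas stages overlapped. Scd2 alone made up much of it, and without Scd2 the means were 4919 CPM at low pressure (SD 550, n = 3) and 3933 at high pressure (SD 203, n = 3).

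**Figure D1:**
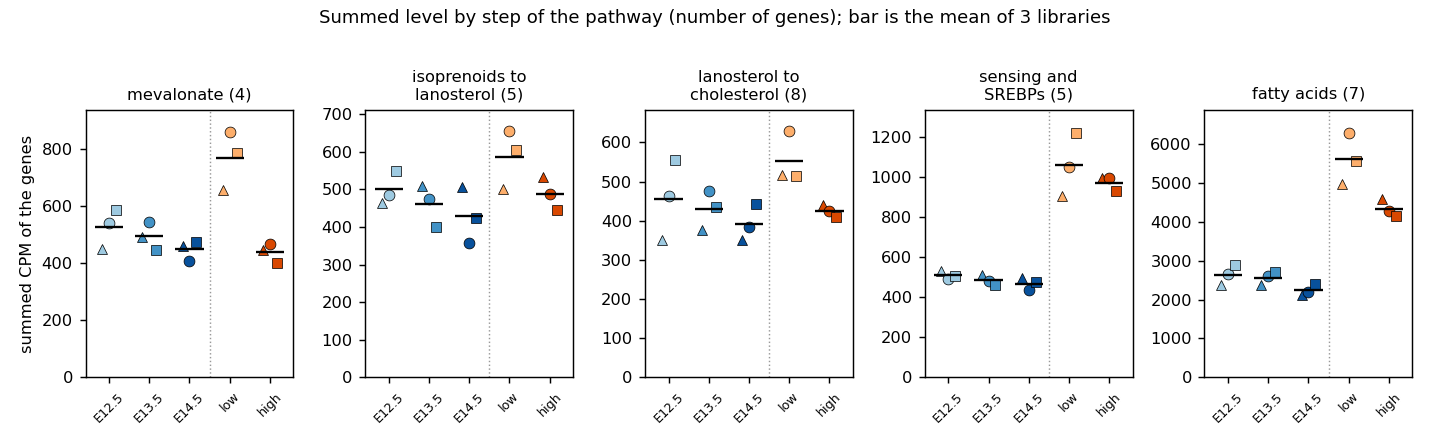
Summed level (CPM, vertical axis) of the genes of each step in the 15 libraries, with triangles, circles and squares for replicates 1, 2 and 3 and a bar at the mean of each group. The mevalonate, late cholesterol and fatty acid steps lay lower in all 3 high pressure libraries than in any low pressure library, and the sensing genes and the isoprenoid step overlapped.

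At high pressure 10 of the 30 genes fell against low pressure, 0 rose and 20 did not pass the test (edgeR quasi-likelihood test, adjusted p under 0.05 over 14937 genes). Among all genes tested 12.2% fell and 14.0% rose. The fallen genes were Hmgcs1, Idi1, Sqle, Msmo1, Nsdhl, Hsd17b7, Insig1, Elovl6, Scd1 and Scd2, and they spanned all 5 steps plotted by sum. In 24 of the 30 genes the estimate was below 0, against 48.9% of all genes, and the median log2 fold change was -0.27, against 0.01 over all genes tested. High pressure libraries lay wholly below the low pressure ones in 13 of the 30, against 21.8% of all genes, and wholly above them in 2 (Pmvk and Ebp), against 25.0%. In whole lungs, less RNA per cell and fewer cells of a type that carries the RNA cannot be told apart.

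**Figure D2:**
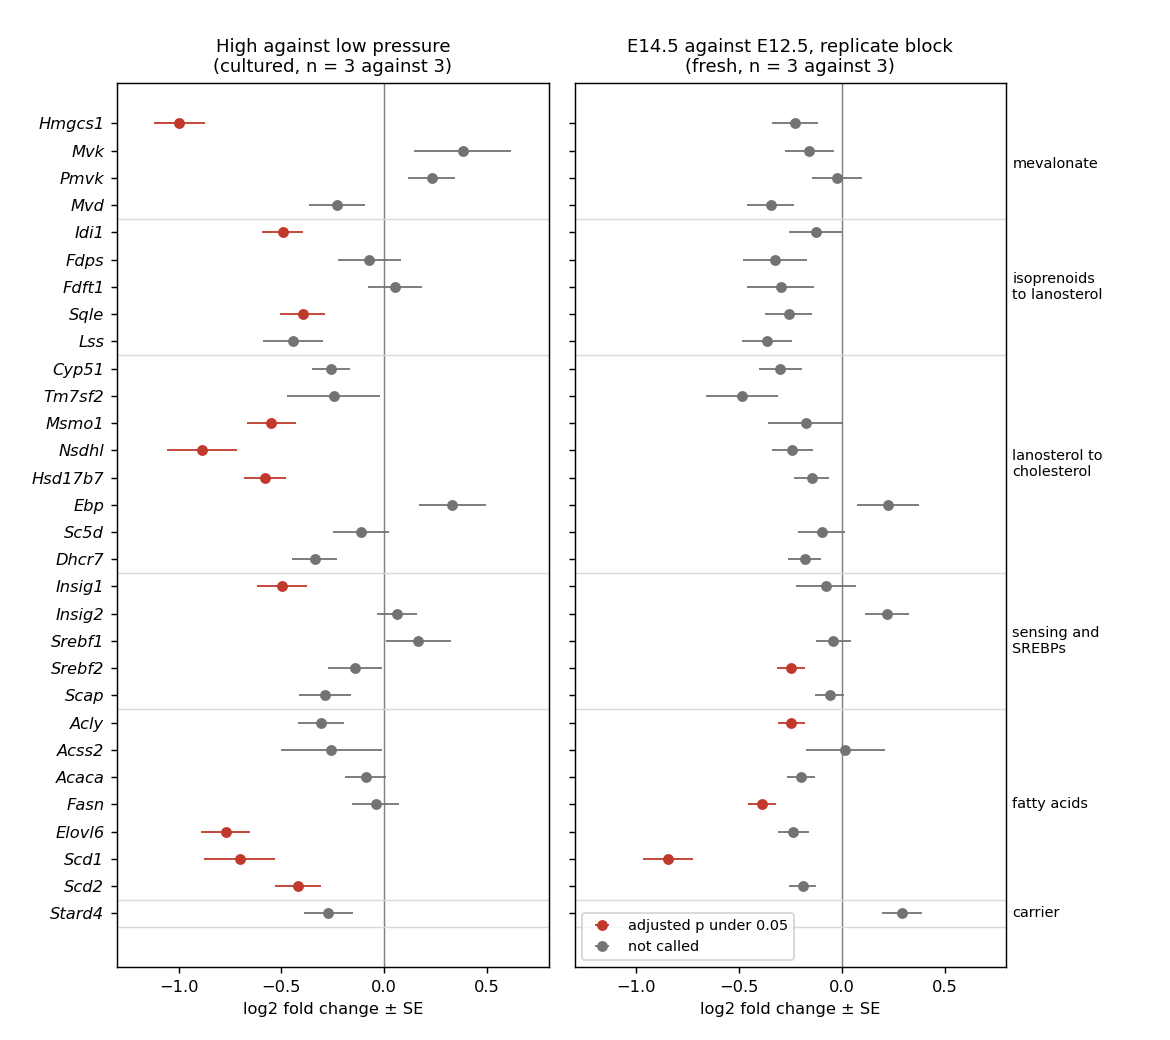
Log2 fold change with its standard error (horizontal axis) of the 30 genes, grouped by step, for high against low pressure (left) and for E14.5 against E12.5 in the fit with a replicate block (right), with red points at adjusted p under 0.05. At high pressure the red points reach from -0.40 for Sqle to -0.997 for Hmgcs1, and 6 genes lie above 0 without passing the test.

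Of the 4 mevalonate genes 1 fell. Hmgcs1, which joins acetyl-CoA and acetoacetyl-CoA at the entry to the pathway, stood at 571, 751 and 675 CPM in the low pressure libraries and at 340, 359 and 302 CPM at high pressure. Of its exon bases 16% lie opposite an antisense gene model, Gm48342, and the strand setting of the counting is not known. The groups did not overlap, and high pressure held 0.501 of the low pressure level (log2 fold change -0.997, SE 0.12, edgeR adjusted p = 0.00139). This was the lowest estimate among the 30 genes. The 2 kinases that follow went the other way without passing the test. Mvk, which phosphorylates mevalonate, was at 11.6, 16.1 and 22.2 CPM at low and 26.2, 19.1 and 19.7 CPM at high pressure, with overlap (log2 fold change 0.38, SE 0.24, edgeR adjusted p = 0.266). Pmvk, the next kinase, was higher in all 3 high pressure libraries by a log2 fold change of 0.23 (SE 0.11, edgeR adjusted p = 0.169). Mvd, the decarboxylase that completes the isoprenoid unit, had -0.23 (SE 0.14, edgeR adjusted p = 0.244).

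Of the 5 genes from isoprenoids to lanosterol 2 fell. Idi1, which isomerises isopentenyl diphosphate, was at 115, 131 and 129 CPM at low pressure and at 91.8, 93.6 and 80.5 CPM at high pressure, without overlap (log2 fold change -0.49, SE 0.10, edgeR adjusted p = 0.00821). Sqle, the squalene epoxidase and a slow step of the pathway, went from 113, 146 and 131 CPM to 101, 101 and 94.4 CPM. Its groups were also separate, with the smallest change of the 10 called (log2 fold change -0.40, SE 0.11, edgeR adjusted p = 0.028). Lss, which closes the rings to give lanosterol, had a similar estimate that did not pass (-0.44, SE 0.15, edgeR adjusted p = 0.0547), and its libraries overlapped. Fdps and Fdft1, which make farnesyl diphosphate and squalene, stood near 0 at -0.07 (SE 0.15) and 0.05 (SE 0.13). Where exons of genes overlap, the counts of both are uncertain: 77.4% of the exon bases of Fdps are shared with Gm43738, a protein-coding gene model on the same strand, and 20.9% of those of Fdft1 lie opposite exons of Ctsb. Opposite-strand models also cover 10.7% of the exon bases of Idi1, 8.16% of Lss and 18.6% of Scap.

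Of the 8 genes from lanosterol to cholesterol 3 fell, all of them parts of the complex that removes methyl groups from the sterol ring. Msmo1, its oxidase, was at 118, 150 and 115 CPM at low and 88.2, 92.8 and 81.1 CPM at high pressure. Nsdhl, its decarboxylating dehydrogenase, which is X-linked, was at 35.9, 56.2 and 40.9 CPM at low and 24.9, 25.1 and 21.9 CPM at high pressure. Hsd17b7, its ketoreductase, was at 56.3, 62.5 and 53.2 CPM at low and 39.5, 36.5 and 39.0 CPM at high pressure. None of these 3 genes overlapped between the groups. Their log2 fold changes were -0.55 for Msmo1 (SE 0.12, edgeR adjusted p = 0.0124), -0.89 for Nsdhl (SE 0.17, edgeR adjusted p = 0.00768) and -0.58 for Hsd17b7 (SE 0.10, edgeR adjusted p = 0.00552). Cyp51, the lanosterol demethylase before them, and Dhcr7, the reductase that ends the pathway, lay lower in every high pressure library but missed the threshold, at -0.26 (SE 0.09, edgeR adjusted p = 0.0704) and -0.34 (SE 0.11, edgeR adjusted p = 0.0514). The sterol reductase Tm7sf2 (-0.25, SE 0.22) and the desaturase Sc5d (-0.11, SE 0.14) did not pass. Ebp, the sterol isomerase, was higher in all 3 high pressure libraries, at 12.4 to 13.3 CPM against 8.42 to 11.4 CPM, and did not pass either (0.33, SE 0.16, edgeR adjusted p = 0.165).

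Among the 5 sensing and control genes only Insig1 fell, from 172, 213 and 172 CPM to 131, 146 and 118 CPM. Its groups did not overlap (log2 fold change -0.50, SE 0.12, edgeR adjusted p = 0.0183). Insig2, at 41.9, 40.9 and 41.0 CPM at low and 40.4, 45.3 and 43.6 CPM at high pressure, did not pass (0.06, SE 0.10, edgeR adjusted p = 0.673). The genes of the transcription factors themselves did not pass: Srebf2, for SREBP-2, had -0.14 (SE 0.13, edgeR adjusted p = 0.464) and Srebf1, for SREBP-1, had 0.17 (SE 0.16, edgeR adjusted p = 0.47). For Srebf1, 1 library set the overlap: low pressure gave 187, 203 and 289 CPM and high pressure 259, 262 and 242 CPM. Without low pressure replicate 3, Srebf1 rose by 0.38 (edgeR adjusted p = 0.00256) and the estimate of Srebf2 went to 0.0042. Scap had -0.29 (SE 0.13, edgeR adjusted p = 0.128). Counts measure these mRNAs and not the cut, active forms of the factors.

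Of the 7 fatty acid genes 3 fell, and they were the elongase and both desaturases. Elovl6, which lengthens palmitate, was at 207, 239 and 176 CPM at low and 122, 125 and 118 CPM at high pressure (log2 fold change -0.77, SE 0.12, edgeR adjusted p = 0.00305). Scd1, a stearoyl-CoA desaturase, was at 181, 289 and 232 CPM at low and 159, 151 and 122 CPM at high pressure (-0.70, SE 0.17, edgeR adjusted p = 0.0196). Scd2, its neighbour on chromosome 19, was at 3332, 4187 and 3675 CPM at low and 2938, 2761 and 2676 CPM at high pressure (-0.42, SE 0.11, edgeR adjusted p = 0.0251). All 3 were without overlap. Scd1 and Scd2 are close paralogs, so reads the counting assigned between them are uncertain. The enzymes that supply and join the 2-carbon units did not pass. Acly, which makes cytosolic acetyl-CoA from citrate, lay lower in every high pressure library at -0.31 (SE 0.11, edgeR adjusted p = 0.0735). Acaca, the acetyl-CoA carboxylase, had -0.09 (SE 0.10) and Acss2 -0.26 (SE 0.25). Fasn, the fatty acid synthase, stood at 528, 665 and 591 CPM at low and 639, 542 and 552 CPM at high pressure, with a log2 fold change of -0.04 (SE 0.12, edgeR adjusted p = 0.82). Stard4, the sterol carrier, had -0.27 (SE 0.12, edgeR adjusted p = 0.124).

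**Figure D3:**
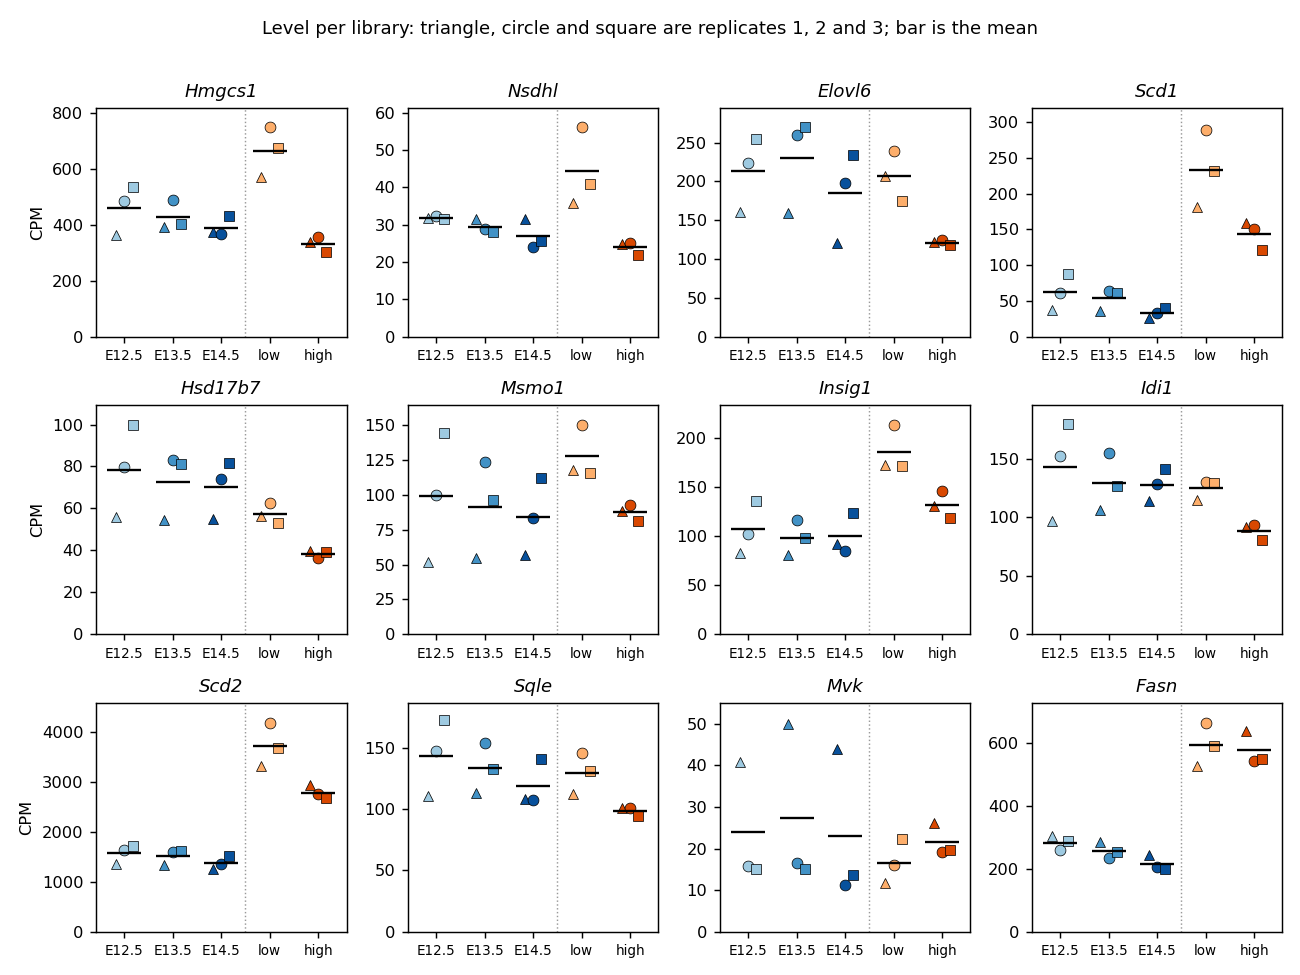
Level (CPM, vertical axis) of the 10 genes that fell at high pressure and of Mvk and Fasn, which did not, in all 15 libraries, with triangles, circles and squares for replicates 1, 2 and 3 and a bar at the mean. For the 10 fallen genes the 3 high pressure libraries lie below the 3 low pressure ones. In the fresh lungs replicate 1 is the highest of each stage for Mvk and Fasn and the lowest for Msmo1, Elovl6, Hsd17b7, Scd1, Scd2 and Idi1.

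The 10 fallen genes kept an estimate below 0 in all 12 alternative fits, and 2 of them, Hmgcs1 and Nsdhl, kept the call in all 12 (Hmgcs1 between -1.09 and -0.85). Only Hmgcs1 and Nsdhl of the 10 passed when all 15 libraries shared a single estimate of the spread, where 1121 of all 14940 genes were called (3.82% of all genes lower), against 3905 of 14937 without the fresh libraries. Leaving out low pressure replicate 3 raised the number of members called to 16, of which 3 rose (Mvk, Pmvk and Srebf1), while 41.1% of all genes were called, and Scd1 then missed the threshold (edgeR adjusted p = 0.0502). Without low pressure replicate 2, 6 members fell, against 7.89% of all genes (17.3% in either direction). Without high pressure replicate 3, 5 members fell, against 6.22% (13.2% in either direction). The number of the 30 below 0 was 21 to 25 over the alternatives.

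The change at high pressure moved with base composition and with a split among the fresh libraries. In the fresh lungs replicate 1 differed from the mean of replicates 2 and 3 in the same direction at all 3 stages for most members, being higher for 10 and lower for 15 of the 30. Mvk was 3.07-fold and Pmvk 2.11-fold higher in replicate 1, and Fdft1 1.85-fold. Fdps was also higher there, by 0.998 on the log2 scale, and had an estimate of -0.07 at high pressure. Msmo1 stood at 0.499, Scd1 at 0.586 and Elovl6 at 0.608 of the other replicates. Among all 13169 genes over 1 CPM, 16% were at least 2-fold apart in the same direction at all stages, and of the members 3 were. Across the 30 genes the log2 fold change at high pressure correlated with this replicate ratio at Pearson r = 0.647 (Spearman rho = 0.640), although it comes from other libraries, and with the GC content of the transcripts at r = 0.566 (rho = 0.588). The replicate ratio and GC content correlated at r = 0.656 (rho = 0.746). The 30 points share their libraries and are not independent. With offsets for GC content and transcript length in the fit, the first 2 correlations were 0.305 and 0.182, and 8 of the 10 genes kept their call. The offsets take out each library's trend with GC content, to which the replicate ratio was also tied. A drop in these correlations was therefore built into that fit and tests no cause. Scd2 and Idi1 lost it there, at -0.33 (edgeR adjusted p = 0.0592) and -0.31 (edgeR adjusted p = 0.0854). Mvd fell in that fit, by 0.60 (edgeR adjusted p = 0.0175), and so did Dhcr7, by 0.45 (edgeR adjusted p = 0.0199), and Scap, by 0.38 (edgeR adjusted p = 0.0461). Mvk went to 0.02 and Pmvk to -0.14, so the higher estimates of the 2 kinases were not seen under the offsets, and Acaca (0.18) and Sc5d (0.10) changed sign without passing.

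**Figure D4:**
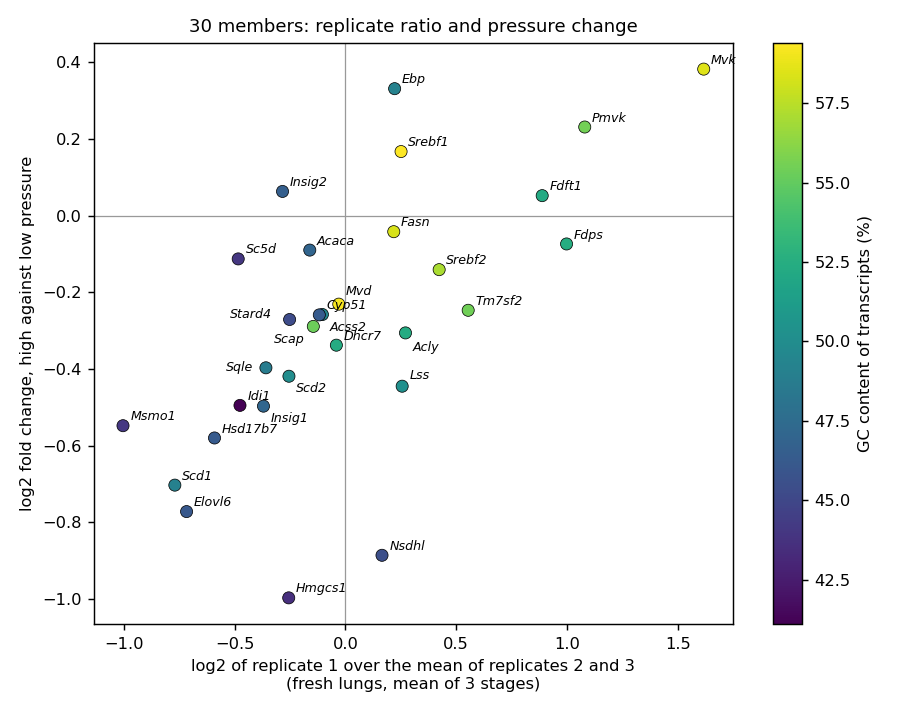
Each point is 1 of the 30 genes, coloured by the GC content of its transcripts (%). The horizontal axis gives the log2 ratio of replicate 1 to the mean of replicates 2 and 3 in the fresh lungs. The vertical axis gives the log2 fold change at high pressure. Msmo1, Scd1 and Elovl6 lie low on both axes, and Mvk and Pmvk lie high on both. Off this trend, Hmgcs1 and Nsdhl lie lowest on the vertical axis at ratios of -0.256 and 0.165. Fdps and Fdft1, at ratios of 0.998 and 0.888, lie near 0 on it.

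Other genes of lipid metabolism were counted from 5 lists, to be read beside the 12.2% of all genes tested that fell and the 14.0% that rose. Among 12 tested genes of other sterol and isoprenoid branches 2 fell, 1 rose and 9 did not pass, with a median log2 fold change of -0.27. The dolichol-chain subunit gene Nus1 fell by 0.48 (SE 0.08, edgeR adjusted p = 0.00437) and Pdss2, of the ubiquinone side chain, fell by 0.50 (edgeR adjusted p = 0.0463), while the prenylcysteine methyltransferase gene Icmt rose by 0.43 (edgeR adjusted p = 0.00767). Among 12 further genes of sterol sensing 2 fell, 1 rose and 9 did not pass, with a median of -0.08. Mbtps2, the protease that makes the second cut in SREBPs, fell from 87.6 to 61.0 CPM (log2 fold change -0.52, SE 0.08, edgeR adjusted p = 0.0036). Faf2 fell by 0.44 (edgeR adjusted p = 0.0344).

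Genes of the later fates of lipids went both ways, as did all genes tested, of which 14.0% rose and 12.2% fell. Among 24 other genes of fatty acid elongation, desaturation and activation 6 rose, 3 fell and 15 did not pass, with a median of 0.18. The risen ones included the desaturase-family gene Fads3 (1.03, SE 0.10, edgeR adjusted p = 0.000651) and the elongases Elovl7 (0.93) and Elovl1 (0.61). Of 22 genes of lipid uptake, efflux and esterification 5 rose, 4 fell and 13 did not pass, with a median of 0.18. The lipoprotein receptor gene Vldlr fell from 288 to 130 CPM (log2 fold change -1.14, SE 0.12, edgeR adjusted p = 0.000929) and the sterol-esterifying Soat1 from 296 to 208 CPM (-0.51, edgeR adjusted p = 0.0127). Rises were led by Stard10, which carries phospholipids (1.95, SE 0.19, edgeR adjusted p = 0.000649), and by the lysosomal cholesterol carrier Npc2 (1.22, SE 0.16, edgeR adjusted p = 0.00179). Of 17 genes of glycerolipid and phosphatidylcholine synthesis 5 rose, 1 fell and 11 did not pass, with a median of 0.32. Lpcat1, which remodels surfactant phosphatidylcholine, rose from 47.5 to 85.4 CPM (0.85, SE 0.10, edgeR adjusted p = 0.00106), and Pcyt1a, the slow step of phosphatidylcholine synthesis, rose by 0.32 (edgeR adjusted p = 0.0225).

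Markers of cell types moved with pressure as well, in a comparison where 14.0% of all genes tested rose and 12.2% fell. Of 7 tested markers of surfactant-producing type 2 cells 6 rose, and the sum of the 8 genes listed was 44.5 to 56.3 CPM at low and 228 to 324 CPM at high pressure, where Sftpc went from a mean of 5.62 to 161 CPM. Of the 8 genes 1, Sftpd, was at 0 in all 3 low pressure libraries. Of 11 general epithelial markers 10 rose, with sums of 918 to 1045 CPM at low and 1915 to 2018 CPM at high pressure. Among 9 endothelial markers 3 fell, with a median log2 fold change of -1.17 and sums of 247 to 393 CPM at low and 107 to 249 CPM at high pressure. Of 10 mesenchymal markers 3 rose and 4 fell, with sums of 7895 to 8954 CPM at low and 9817 to 12100 CPM at high pressure. Of 6 tested lipofibroblast markers 2 rose and 1 fell with a median log2 fold change of 0.37, while the sums over the 7 listed genes were lower at high pressure, at 547 to 669 CPM against 702 to 1080 CPM. Among the remaining lists 2 of 6 smooth muscle markers rose and 1 fell, 3 of 5 mesothelial markers rose, 2 of 8 leukocyte markers rose and 1 fell, 2 of 7 erythroid markers fell, 1 of 9 neuronal and glial markers rose and 0 of 8 cardiac markers passed. The part of these shifts in the members' change was not tested.

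In the fresh lungs no member passed the test between any 2 stages in the fit without a replicate block (0 of 30, as 0% of all 14242 genes tested in each comparison). At an unadjusted p under 0.05 there were 0 members for E13.5 against E12.5 (0.864% of all genes), 0 for E14.5 against E13.5 (6.86%) and 3 for E14.5 against E12.5 (9.32%), and DESeq2 also called 0 members in each at an adjusted p under 0.05, against 0%, 1.44% and 2.43% of all genes in the same order. Because replicate 1 of each stage deviated from replicates 2 and 3 in a shared way, the fit with the replicate number as a block is given beside it. Numbers 2 and 3 were not seen to pair the stages. In that fit 4 of the 30 genes fell from E12.5 to E14.5 and 0 rose, against 3.63% and 7.33% of all genes. Estimates were below 0 for 26 of the 30, against 50.7% of all genes, with a median of -0.20 against -0.003 over all genes tested. Between same-numbered libraries, E14.5 lay below E12.5 in all 3 pairs for 15 of the 30, against 23.2% of all genes.

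Scd1 had the lowest estimate. Its levels were 37.5, 61.3 and 87.2 CPM in E12.5 replicates 1 to 3, 36.0, 63.8 and 61.4 CPM at E13.5, and 25.7, 33.4 and 40.9 CPM at E14.5. Within every replicate number the E14.5 library lay below the E12.5 one, although the groups overlapped (log2 fold change -0.85, SE 0.12, edgeR adjusted p = 0.0031 with the block and 0.437 without it). Fasn was at 304, 259 and 289 CPM at E12.5, 287, 235 and 253 CPM at E13.5, and 245, 206 and 200 CPM at E14.5. For Fasn the E12.5 and E14.5 libraries did not overlap (-0.39, SE 0.07, edgeR adjusted p = 0.00591 with the block and 0.433 without it). Acly, at 374, 314 and 353 CPM at E12.5 and 340, 259 and 284 CPM at E14.5, fell by 0.25 (SE 0.07, edgeR adjusted p = 0.0344 with the block and 0.907 without it). Srebf2, at 250, 208 and 190 CPM at E12.5 and 223, 165 and 161 CPM at E14.5, likewise fell by 0.25 (SE 0.07, edgeR adjusted p = 0.0411 with the block and 1 without it). Acly and Srebf2 overlapped between the stages and were lower in each numbered pair. Scd1 and Fasn kept the call in each of the 6 blocked fits that left out 1 library of these stages. Leaving out any 1 of the 6 other than E12.5 replicate 1 ended the calls of Acly and Srebf2, and without E12.5 replicate 1 there were 10 calls, 9 lower, against 5.14% of all genes, and Stard4 higher. Over all genes 1977 were called in that fit and 1561 in the one with every library.

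From E12.5 to E14.5 the blocked fit called 0 of 4 mevalonate genes, 0 of 5 from isoprenoids to lanosterol and 0 of 8 after lanosterol. Over all genes 3.63% fell and 7.33% rose in that fit. The median log2 fold changes of these steps were -0.19, -0.30 and -0.18, and that of the fatty acid genes was -0.24. Hmgcs1 stood at 363, 487 and 535 CPM at E12.5, 393, 491 and 402 CPM at E13.5, and 374, 367 and 431 CPM at E14.5, with overlap (-0.23, SE 0.11, edgeR adjusted p = 0.22 with the block). Mvd and Dhcr7 were lower in every E14.5 library than in any E12.5 library, as were Fasn and Acaca, 4 of 30 against 5.33% of all genes, and Mvd had -0.35 (SE 0.12, edgeR adjusted p = 0.0744 with the block). Stard4 lay higher in every E14.5 library, at 87.4, 90.6 and 106 CPM against 74.2, 79.5 and 77.6 CPM, 1 of 30 against 8.76%, and did not pass (0.29, SE 0.10, edgeR adjusted p = 0.0704 with the block). By day, 0 members were called from E12.5 to E13.5 in the blocked fit, against 0.00702% of all genes. From E13.5 to E14.5, 0 rose, against 4.15%, and 2 fell, against 1.86%: Scd1 by 0.67 (SE 0.12, edgeR adjusted p = 0.0119) and Elovl6 by 0.33 (SE 0.07, edgeR adjusted p = 0.028). Elovl6 was lower in each numbered pair, at 159, 260 and 271 CPM at E13.5 and 121, 199 and 234 CPM at E14.5. The difference between the 2 daily steps was itself tested and called 0 members in edgeR without the block and 0 with it, against 0% and 0.0211% of all genes. At an unadjusted p under 0.05 there were 0 without the block, against 1.64%, and 2 with it, against 7.76%, and DESeq2 called 0 at an adjusted p under 0.05.

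Lists around the pathway behaved as follows from E12.5 to E14.5 in the blocked fit, where 7.33% of all genes rose and 3.63% fell. Of 12 other sterol and isoprenoid genes 1 fell, Lbr, a sterol reductase of the nuclear envelope (-0.30, edgeR adjusted p = 0.0305). Of 12 further sensing genes 1 rose, 0 fell and 11 did not pass. Among 24 other fatty acid genes 5 rose and 0 fell, among them Fads3 (0.84), Elovl7 (0.84), Me1, which supplies NADPH (0.33), and the second acetyl-CoA carboxylase gene Acacb (0.95). Of 21 uptake and efflux genes 3 rose, Vldlr (1.43), Abcg1 (0.72) and Lipa (0.27), and of 17 glycerolipid genes Chpt1 rose (0.45) and Pcyt1b fell (-0.62). Their medians lay between -0.04 and 0.14, against -0.003 over all genes tested.

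Marker lists shifted between these stages too, in the same fit with 7.33% of all genes higher and 3.63% lower. Of 9 cardiac and striated muscle markers 6 rose, with sums of 6.62 to 38.1 CPM at E12.5 and 331 to 1432 CPM at E14.5. Among 9 endothelial markers 6 rose, with sums of 495 to 732 and 777 to 1020 CPM, and 1 of 7 tested erythroid markers fell, with sums over 9 genes of 2909 to 3551 and 559 to 1539 CPM and with Hba-a1 and Hba-a2, near-identical copies, at 0 in every library. Of 5 tested lipofibroblast markers 3 rose (median log2 fold change 0.70), with sums over 7 genes of 221 to 379 and 293 to 425 CPM and with Plin1 at 0 at E14.5. Of 10 mesenchymal markers 4 rose and 1 fell, with sums of 4757 to 5425 and 6747 to 7317 CPM. Of 6 smooth muscle markers 2 rose, with sums of 380 to 799 and 779 to 1113 CPM, and of 5 mesothelial markers 2 rose, with sums of 142 to 164 and 192 to 257 CPM. Among leukocyte and type 2 cell markers, 1 of 8 and 1 of 5 tested rose. Of 11 general epithelial and 10 neuronal and glial markers 0 passed. The part of these shifts in the members' changes was not tested.

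Cultured and fresh lungs were scaled separately, so their levels are set side by side without a test. The mean at low pressure and at E12.5, the stage at which culture began, was 3731 and 1572 CPM for Scd2, 234 and 62.0 CPM for Scd1, 545 and 216 CPM for Srebf2, and 595 and 284 CPM for Fasn. Stard4 had 77.1 CPM in both. Hsd17b7 had 57.3 CPM at low pressure and 78.5 CPM at E12.5, and Scap 58.3 and 76.9 CPM. Scd1 after culture at high pressure (144 CPM) was above its level in all 9 fresh libraries, whereas Hmgcs1 at high pressure (334 CPM) lay below all 9.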

How the data were processed

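RNA was measured in 15 libraries of 5 groups. The submitters' processing notes name cutadapt 1.6, Bowtie 1.1.1, TopHat, HTSeq and DESeq2, and genome build mm10. For annotation and strand, the settings used in counting are not given in the sources here. The authors deposited raw counts for 23420 genes in a table of 6 cultured and a table of 9 fresh libraries, and all tests started from them. The normalized signal and the log2 tables that the authors also deposited were not used in the tests, and 0 sample columns were left out.

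Each table was fitted whole with edgeR 4.0.16 in R 4.3.3: TMM factors, filterByExpr to remove low counts, the quasi-likelihood F-test (robust) and Benjamini-Hochberg adjustment over all genes tested, at a threshold of 0.05. Log2 fold changes come from that fit, and the SE is the size of the change divided by the square root of F. CPM are counts scaled by the TMM effective library size. Total counts per library, 18837343 to 44341263, limit the precision of weakly expressed genes. On simulated counts the fit recovered 33% of 1.5-fold and 84% of 2-fold changes for high against low pressure over 14779 genes. For E14.5 against E12.5 with the block it recovered 68% and 99% over 14214 genes. Genes without a planted change made up 6 of 123 calls in the first case and 15 of 182 in the blocked one. The weakest genes received no planted change, and the blocked simulation had a replicate effect built in. Far fewer genes were called in the simulations than in the data. The calls were 123 against 3905 for high against low pressure and 182 against 1561 for the blocked fit. With fewer calls the adjusted threshold is stricter, so the recovered shares do not carry over to the data. DESeq2 1.42.0, median-of-ratios factors, no filter on low counts, the replicate number as a block, GC and length offsets (loess, from GENCODE M21 transcripts), all libraries in 1 fit, a term for replicate 1 and leaving out each library were the alternatives.

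Whether replicate numbers pair the samples was checked from their deviations from group means. In the fresh set all 9 same-numbered pairs correlated at 0.397 to 0.838, and the blocked fit treated the numbers as pairs. The 18 pairs with other numbers reached from -0.736 to 0.625, and the meaning of the numbers is not stated in the labels. Replicates 2 and 3 of different stages correlated at 0.454 to 0.625, against 0.397 to 0.606 for same-numbered pairs of replicates 2 or 3. The correlations thus set replicate 1 apart and do not show that numbers 2 and 3 pair the stages. In the cultured set the 3 same-numbered pairs gave -0.0124 to 0.0461. The text names all 30 members, and up to 4 genes of each further list with the smallest p, except 1 gene that is not reported here. Members and lists were chosen with earlier results of these data known. For GC content and length, 98.4% of table genes had a gene model. Faxdc2, Adrp, Hbb-bt and Muc16 had no row under these symbols.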

Additional observations from a re-analysis of the deposited data

How the results depend on the processing

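Settings that used the block together with another change, replicates 2 and 3 alone, or GC offsets in the fresh set were chosen after seeing the data. For high against low pressure, 10 members were called, and DESeq2 (14), median-of-ratios factors (12), no filter on low counts (11), the replicate block (8, against 9.51% of all genes lower, where Sqle and Scd2 lost the call at edgeR adjusted p = 0.0505 and 0.0548) and GC and length offsets (11) stayed within 1.5 times of that. A single fit of all 15 libraries called 2, and leaving out 1 replicate gave 5 to 16. The cause was not tested. Over all genes, high against low pressure had 3905 calls, 1121 in the single fit, 6257 without low pressure replicate 3, and 2917 with GC offsets. DESeq2 called 4745 of 18160 genes (12.8% of all genes lower), and median-of-ratios factors 3922 of 14937 (12.8% lower). Without the filter on low counts 3807 of 18160 genes were called (9.61% lower). The 10 fallen members kept the call under DESeq2, under median-of-ratios factors and without the filter. Among the lists, the block moved glycerolipid genes from 5 rises and 1 fall to 2 rises (Lpcat1 and Pnpla2, not Pcyt1a) and 1 fall. It moved endothelial markers from 3 falls to 7, and mesenchymal markers from 3 rises and 4 falls to 3 and 1. Pdss2 and Faf2 lost the call under the block (edgeR adjusted p = 0.0705 and 0.0527). Over all genes 11.5% rose and 9.51% fell with the block. For E14.5 against E12.5 the count was 0 without a block and 4 with the replicate block, 3 with a term for replicate 1, and 6 with replicates 2 and 3 alone. Over all genes these settings called 0, 1561, 1592 and 1119. With the block it was 8 in DESeq2, 6 with median-of-ratios factors, 7 with GC offsets and 2 to 10 when 1 replicate was left out, while all genes gave 1824, 1656, 2195 and 435 to 1977. For E14.5 against E13.5 it was 0 without a block, 2 with it, 2 with the term for replicate 1, and, with the block, 4 in DESeq2, 3 with median-of-ratios factors, 2 with GC offsets and 0 to 2 when 1 replicate was left out. Over all genes these were 0, 856, 808, 1150, 881, 1145 and 77 to 832. Without the block, leaving out 1 replicate gave 0 in every stage comparison. E13.5 against E12.5 and the difference between the daily steps stayed at 0 in every setting run. Estimates changed sign for Pmvk with GC offsets (-0.14), for Srebf2 without low pressure replicate 3 (0.0042, with -0.255 as the lowest value when 1 replicate was left out) and for Acss2 without low pressure replicate 2 (0.0923, with -0.408 as the lowest). Estimates within 1 SE of 0 also changed sign, among them Acaca (0.18) and Sc5d (0.10) with GC offsets, Fdps (0.05) and Fasn (0.05) without low pressure replicate 2, and Fdft1 (-0.075) without high pressure replicate 1, and none of these 5 values was called. With 3 pools a group, some changes of 1.5-fold may be missed in the cultured set, and their share was not measured at the number of calls seen there.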
